A study of Mus musculus with 3 samples.

Results

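The 40 genes described here encode the machinery of DNA replication and the S phase supply of deoxynucleotides. They were listed by name as origin licensing, replication fork and nucleotide supply genes, and all 40 were found among the 24421 genes counted in NUP153 deficient mouse ES cells. RNA-Seq was carried out on the female ES cell line EL16.7, undifferentiated (strain F2:129S1/CastEiJx 129S1), with 1 library from cells given a scramble control shRNA and 1 library from each of 2 NUP153 shRNAs, here called KD-1 and KD-2. Control and knockdown cells alike were transduced with lentivirus in medium with LIF and then selected with puromycin at 2 µg/ml for 2 days. They were grown on a layer of γ-irradiated embryonic fibroblasts from Tg(DR4)1Jae/J mice. Each library is therefore a pool of transduced cells and not a clone. RNA of the fibroblasts can be present in any of the libraries. With 1 library per condition the differences below have no replicate check, and every interval given is a 95% interval that covers counting error only.

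Replication begins when the origin recognition complex binds DNA and, with CDC6 and CDT1, loads the ring-shaped MCM helicase in G1 phase. MCM10, CDC45 and the GINS complex then turn the loaded ring into a moving helicase as S phase starts. Polymerase alpha with its primase lays down primers, the clamp loader RFC places the PCNA clamp, and polymerases delta and epsilon copy the strands, while RPA covers single-stranded DNA and FEN1 and DNA ligase 1 join the Okazaki fragments of the lagging strand. Many of these genes are textbook targets of E2F transcription factors, which are held in check by the retinoblastoma family of pocket proteins until cells commit to S phase. Mouse ES cells divide fast, spend much of their cycle in S phase and hold high levels of the licensing proteins.

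Promoters of 5 of these genes are shown as examples of stretches with the E2F and CCAAT letters, with CCAAT alone and with neither. Each is the 150 bases before the RefSeq start (GRCm38.p6), read 5′ to 3′ on the strand of the gene. Capitals mark the E2F letters (TTTCCCGC, TTTGGCGC, TTTCGCGC or TTTGCCGC) and the CCAAT letters, on either strand. Overlapping matches are joined, as in Mcm6, where TTTGGCGC and GCGCGAAA share bases.
Mcm6 at chr1:128359706-128359855, minus strand: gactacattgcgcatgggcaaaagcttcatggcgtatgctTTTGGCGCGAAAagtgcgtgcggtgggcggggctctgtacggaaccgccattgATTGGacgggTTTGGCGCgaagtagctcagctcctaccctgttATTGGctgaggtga
Mcm5 at chr8:75109359-75109508, plus strand: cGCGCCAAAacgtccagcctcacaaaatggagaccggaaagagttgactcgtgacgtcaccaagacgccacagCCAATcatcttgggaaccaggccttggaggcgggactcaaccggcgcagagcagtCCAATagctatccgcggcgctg
Pola1 at chrX:93632156-93632305, minus strand: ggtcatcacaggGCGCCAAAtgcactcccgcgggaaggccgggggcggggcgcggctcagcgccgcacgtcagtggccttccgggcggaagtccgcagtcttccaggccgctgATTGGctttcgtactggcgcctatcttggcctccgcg
Rrm1 at chr7:102441545-102441694, plus strand: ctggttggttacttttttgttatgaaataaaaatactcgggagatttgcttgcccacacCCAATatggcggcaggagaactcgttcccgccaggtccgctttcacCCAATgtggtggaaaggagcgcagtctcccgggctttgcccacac
Mcm2 at chr6:88898781-88898930, minus strand: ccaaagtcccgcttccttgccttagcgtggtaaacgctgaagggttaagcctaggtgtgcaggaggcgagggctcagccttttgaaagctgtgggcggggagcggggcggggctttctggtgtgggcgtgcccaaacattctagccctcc

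In the whole RefSeq window, from 250 bases before to 50 bases after the start, 12 of the 33 members with a window held at least 1 E2F match (36.4%). The share was 3.72% among the 12286 windows of genes tested here and 2.33% among all 27025 windows. Mcm6 had the most matches of any member, with 3, the first bases lying 110, 106 and 47 bases before the start. Mcm3, Mcm5, Mcm7 and Rfc3 had 2 each, and Orc1, Orc3, Cdc6, Cdt1, Gins3, Pola1 and Pold1 had 1 each. The single match of Pola1 began 138 bases before the start. Mcm2 had no E2F match, and its 1 CCAAT match lay outside the stretch shown. CCAAT, the letters bound by NF-Y, was present in 22 of the 33 windows (66.7%), against 38.4% of tested genes. TTTGAA, the letters of the CHR element of late cell cycle genes, was present in 4 windows (12.1%), a share close to the 12.4% of tested genes. A match describes letters and not a bound site, and 7 members had no window in the table used here.

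The targeted gene was examined first. Control had 27870 Nup153 reads, KD-1 had 16451 and KD-2 had 11126. After scaling by the upper quartile this was 50.4% of the control level in KD-1 (log2 fold change -0.99) and 37.1% in KD-2 (log2 fold change -1.43). The KD-2 library thus had the lower Nup153 level. The control library held 72344726 reads on genes, KD-1 held 85258834 and KD-2 held 69839336. A mean of at least 10 reads was reached by 16670 genes. All 40 replication genes were among them, with means from 1830 reads for Gins3 to 56065 for Mcm5.

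Replication genes are strongly expressed in these cells, and they took 0.835% of all reads on genes in control, 0.801% with KD-1 and 0.655% with KD-2. Levels were compared between genes as RPKM, reads per kilobase of exon scaled to the total reads on genes of the library. The median RPKM over the 40 genes was 31.2 in control, 30.2 with KD-1 and 22.8 with KD-2. Pcna, the sliding clamp, had the highest level in control (246 RPKM) and in KD-1 (201 RPKM), and was at 167 RPKM in KD-2. Mcm5 was at 186 RPKM in control, 195 with KD-1 and 172 with KD-2, where it stood above Pcna. Mcm3, Mcm6, Mcm4, Mcm7 and Rrm2 followed in control with 159, 142, 132, 113 and 103 RPKM, so 5 of the 6 subunits of the MCM ring were among the 7 highest members. Mcm2 was lower, at 59.1 RPKM in control. The lowest member in control was Orc4, an origin recognition subunit, at 7.89 RPKM, and in both knockdowns it was Pola2, the accessory subunit of polymerase alpha, at 6.92 RPKM with KD-1 and 6.27 with KD-2.

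**Figure D1:**
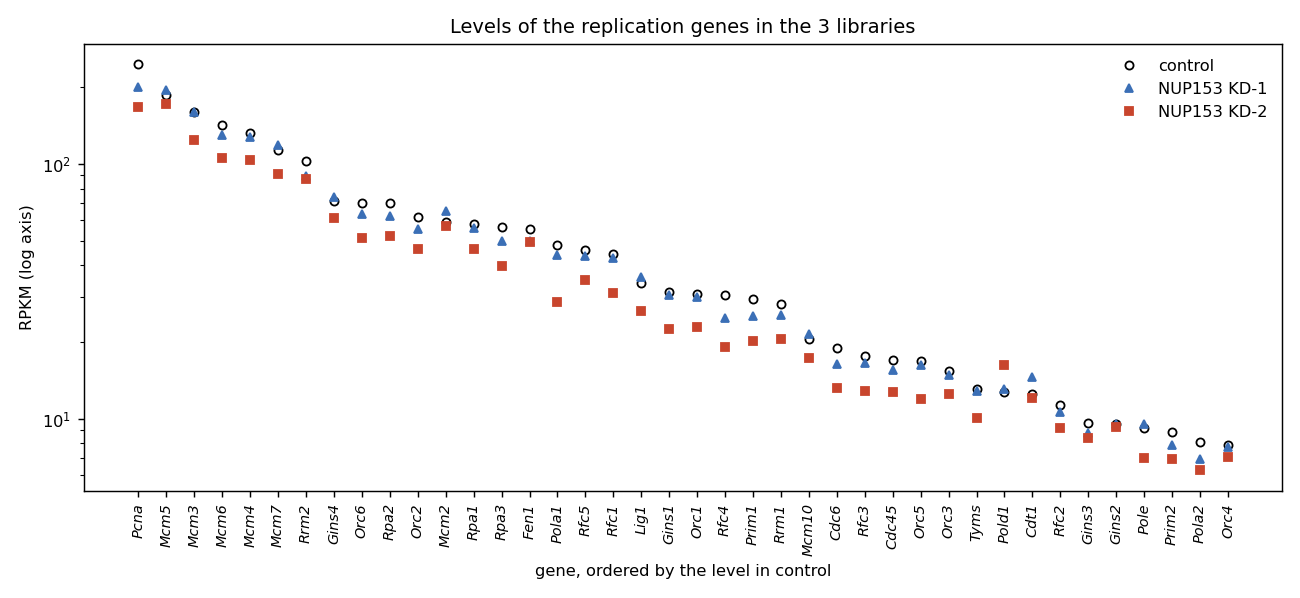
RPKM (log axis) of each of the 40 replication genes in the control (open circles), KD-1 (triangles) and KD-2 (squares) library, 1 library each, ordered by the level in control. Levels run from 7.89 for Orc4 to 246 for Pcna in control, and the KD-2 square lies below the control circle for every gene except Pold1.

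KD-2 was compared with control to ask how replication genes stood in NUP153 deficient cells. In KD-2, 39 of the 40 replication genes were lower than in control, against 51.7% of all genes tested (48.3% were higher), and the median log2 fold change of the 40 was -0.53, against -0.02 over all genes. A fold of 1.5 was passed by 14 members, all lower, where 10.2% of all genes passed it downward. With other scalings of the same counts, from 2 to 9 members passed it, Pola1 and Rfc4 under each scaling. Those scalings moved all genes upward in KD-2, so fewer than 10.2% of them passed it downward. The 2 members with library totals are not read as an excess over all genes past that fold. Set against genes of like read count, against genes of like read count and GC content, or against ES cell markers, as given below, 1, 0 and 1 members passed it and the median was -0.25, -0.27 and -0.28. All 14 fibroblast markers were higher in the same library, with a median of 0.80. No member passed it upward, where 17.1% of all genes did. Pold1 was the exception in direction. In KD-1 the members lay close to control, with 29 lower (46.9% of all genes were lower), 11 higher (53.1% of all genes) and a median of -0.06 on the log2 scale, against 0.02 over all genes. No member passed a fold of 1.5 in KD-1, where 8.63% of all genes passed it upward and 5.62% downward. Adjusted for read count, for GC content or to ES cell markers, as given below, 7 of the 22 members named with full values changed sign in KD-1 (Mcm2, Orc1, Orc5, Gins1, Rfc1, Pole and Lig1) and 3 in KD-2 (Mcm2, Cdt1 and Fen1). Both comparisons use the same control library, so the values of KD-1 and KD-2 are given side by side and are not independent of each other. In bulk RNA, fewer cells of a type or cycle phase and less RNA per cell cannot be told apart.

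**Figure D2:**
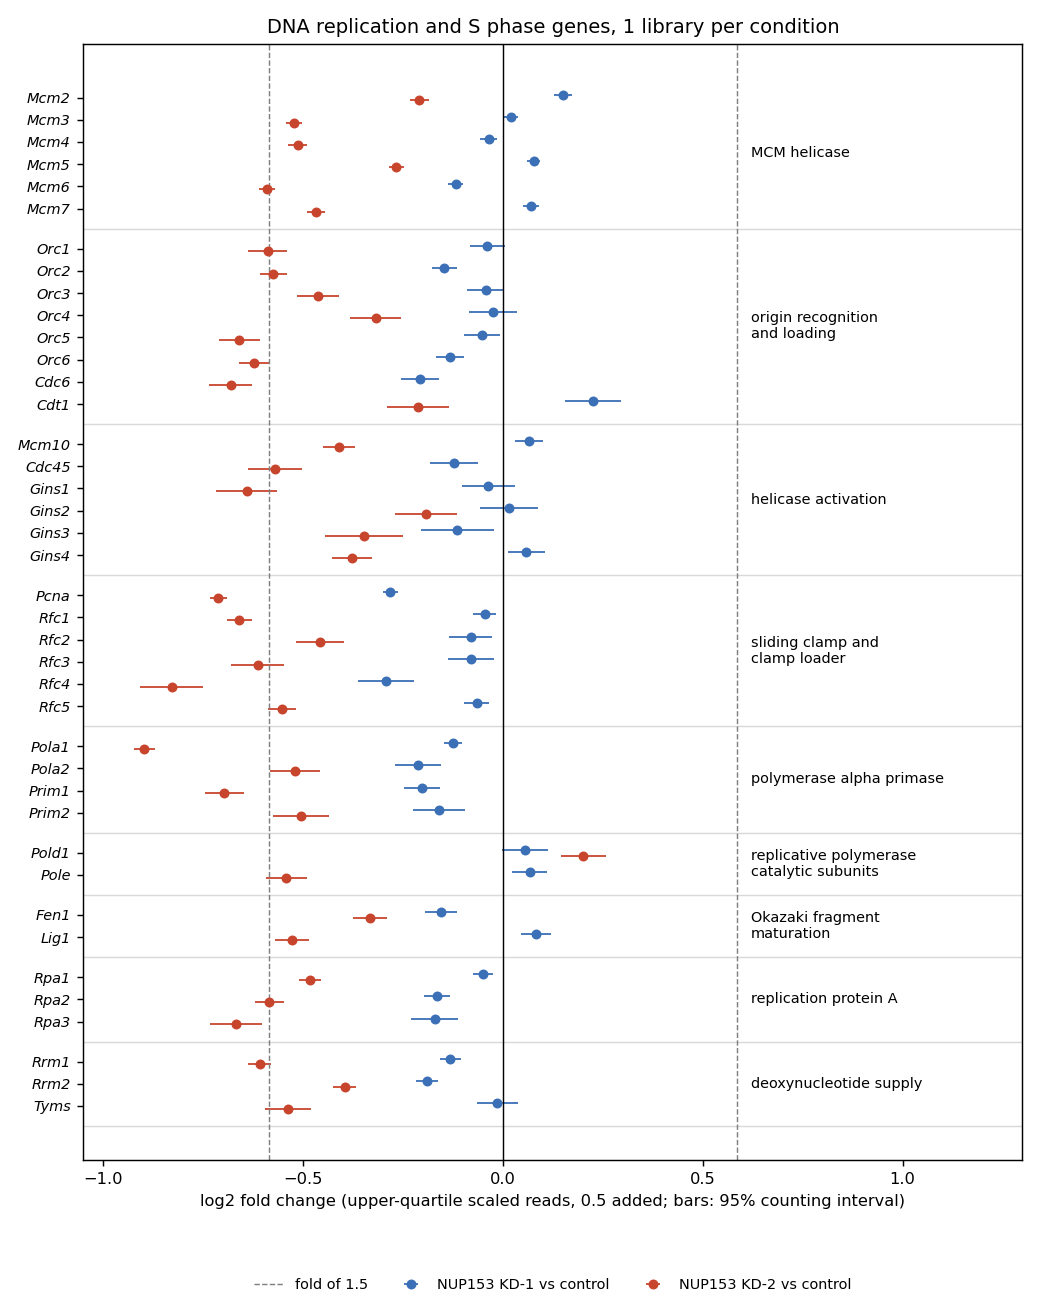
log2 fold change against control of the 40 replication genes, grouped by role, in KD-1 (blue) and KD-2 (red), with 1 library per condition. Bars are 95% counting intervals, dashed lines mark a fold of 1.5, and the KD-2 points run from -0.90 for Pola1 to 0.20 for Pold1 while the KD-1 points run from -0.29 for Rfc4 to 0.23 for Cdt1.

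The MCM subunits form the helicase core. Their median log2 fold change was 0.04 with KD-1 and -0.49 with KD-2, with all 6 lower in KD-2 (51.7% of all genes) and 1 past a fold of 1.5, where 10.2% of all genes passed it downward. With the other scalings 0 of the 6 passed it. Mcm6 had 51788 scaled reads in control, 47708 with KD-1 and 34396 with KD-2, which put KD-2 at 66.4% of control (log2 fold change -0.59, interval -0.61 to -0.57). Mcm6 was thus the lowest of the ring in KD-2 and only slightly below control in KD-1. Mcm2 had 32135 scaled reads in control, 35673 with KD-1 and 27790 with KD-2. Its log2 fold change was 0.15 with KD-1 and -0.21 with KD-2, the highest value among MCM subunits in each comparison. Mcm5 behaved like Mcm2, with 58041, 61232 and 48255 scaled reads in control, KD-1 and KD-2 and log2 fold changes of 0.08 and -0.27. Mcm3, Mcm4 and Mcm7 lay between, at -0.52, -0.51 and -0.47 in KD-2 and at 0.02, -0.04 and 0.07 in KD-1. The 6 subunits of 1 ring therefore spanned from -0.59 to -0.21 in KD-2, a range several times wider than their counting intervals.

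Origin recognition subunits and the loading factors showed median log2 fold changes of -0.05 with KD-1 and -0.58 with KD-2, and 4 of these 8 genes passed a fold of 1.5 downward in KD-2, against the 10.2% of all genes. With other scalings 2 of the 8, Orc5 and Cdc6, passed it, or 0 with library totals. Cdc6 (chr11:98907801-98923940), the ATPase that helps to load the MCM ring, had 7745 scaled reads in control, 6711 with KD-1 and 4829 with KD-2, so that both knockdowns lay below control. Its log2 fold change was -0.21 with KD-1 and -0.68 with KD-2. Orc5 had 8143 scaled reads in control, 7851 with KD-1 and 5153 with KD-2 (log2 fold change -0.05 and -0.66). The KD-1 library was thus close to control for Orc5 and KD-2 was not. Orc6, the subunit with the highest level of the complex, was at -0.13 with KD-1 and -0.62 with KD-2. Orc1, the largest ATPase subunit, had 8419, 8193 and 5597 scaled reads in control, KD-1 and KD-2. Its KD-2 value, -0.59, lay just past the fold and its KD-1 interval, -0.08 to 0.005, held 0. Orc2 at -0.57 fell just short of a fold of 1.5 in KD-2, and Orc3 and Orc4 were at -0.46 and -0.32. Cdt1 (chr8:122568015-122573554), the second loading factor, was the member highest above control in KD-1, with 3064 scaled reads in control, 3581 with KD-1 and 2644 with KD-2. It stood at 117% of control in KD-1 (log2 fold change 0.23, interval 0.16 to 0.30) and at 86.3% in KD-2 (log2 fold change -0.21). The 2 factors that load the same helicase, Cdc6 and Cdt1, thus differed in direction in KD-1 and in size in KD-2. Their GC content is 49.2% for Cdc6 and 57.8% for Cdt1. In the GC deciles that hold them, the KD-2 medians of all genes were -0.07 and 0.23.

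Genes that activate the helicase were nearer to control, with median log2 fold changes of -0.01 with KD-1 and -0.39 with KD-2. Gins1 had 3734 scaled reads in control, 3640 with KD-1 and 2394 with KD-2, and was the single gene of the 6 in this group past a fold of 1.5 (log2 fold change -0.04 with KD-1 and -0.64 with KD-2), a share near the 10.2% of all genes. The 4 GINS subunits, which form 1 complex, differed in value: Gins4, Gins3 and Gins2 were at -0.38, -0.35 and -0.19 in KD-2. In the annotation (GENCODE vM21), 67.3% of the exon length of Gins2 overlaps Gse1 on the opposite strand, and the sources used here do not state whether strand was used in counting, so its reads cannot be separated from those of Gse1. Cdc45, which joins the helicase with GINS, was at -0.12 with KD-1 and -0.57 with KD-2, just short of a fold of 1.5. Mcm10, which acts when the helicase is activated, was at 0.07 with KD-1 and -0.41 with KD-2.

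The sliding clamp and its loader were the group lowest in KD-2, at a median of -0.64 on the log2 scale, and all 6 genes were also below control in KD-1 (median -0.08), as were 46.9% of all genes and 29 of the 40 members. A fold of 1.5 was passed in KD-2 by 4 of the 6 (10.2% of all genes), by 3 with most other scalings and by 1, Rfc4, with library totals. Pcna (chr2:132249162-132253314 in GRCm38, GENCODE vM21) had 46139 scaled reads in control, 37954 with KD-1 and 28169 with KD-2. It stood at 82.3% of control in KD-1 (log2 fold change -0.28, interval -0.30 to -0.26) and at 61.1% in KD-2 (-0.71, interval -0.73 to -0.69), so the 3 libraries were ordered control, KD-1, KD-2. Rfc4 (chr16:23113943-23127737), a clamp loader subunit, showed the same order, with 3647, 2980 and 2053 scaled reads. Its log2 fold changes of -0.29 and -0.83 were the lowest of all members in KD-1 and the second lowest in KD-2, and 12.7% of its exon length overlaps Eif4a2 on the opposite strand. Rfc1, the large subunit, was near control in KD-1 at 20129 scaled reads against 20781 and lower in KD-2 at 13157 (log2 fold change -0.05 and -0.66). Rfc3 was at -0.08 and -0.61, and Rfc5 and Rfc2 did not pass the fold, at -0.55 and -0.46 in KD-2. Pcna has 2 annotated pseudogenes and Tyms has 1. Reads shared with such copies could be lost or split, and for Tyms-ps only 14, 39 and 20 reads were counted in control, KD-1 and KD-2.

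Polymerase alpha and primase make the primers that start each new strand, and all 4 genes were below control in both knockdowns (median -0.18 with KD-1 and -0.61 with KD-2), as were 27.0% of all genes and 29 of the 40 members. Pola1, the catalytic subunit, was the lowest member in KD-2. It had 33021 scaled reads in control, 30278 with KD-1 and 17732 with KD-2, which is 91.7% of control in KD-1 (log2 fold change -0.13) and 53.7% in KD-2 (-0.90, interval -0.92 to -0.87). KD-2 thus stood apart from the other libraries for Pola1. Pola1 is the single X-linked member (chrX:93304767-93632155), and the 632 X-linked genes tested showed median log2 fold changes of -0.01 with KD-1 and -0.30 with KD-2. Prim1, the catalytic primase subunit, had 8878, 7716 and 5476 scaled reads in control, KD-1 and KD-2 (log2 fold change -0.20 and -0.70). Pola2 and Prim2 were at -0.21 and -0.16 in KD-1 and at -0.52 and -0.51 in KD-2. Both catalytic subunits were thus past the fold in KD-2 (10.2% of all genes were, downward) and both partners were within it, while with library totals Pola1 alone was past it.

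The catalytic subunits of the polymerases that extend the strands went apart. Pold1 (chr7:44532746-44548849), of polymerase delta, had 4813 scaled reads in control, 5000 with KD-1 and 5534 with KD-2, and was the single member above control in KD-2 (115% of control, log2 fold change 0.20, interval 0.14 to 0.26). Pole (chr5:110286306-110337474), of polymerase epsilon, had 8002, 8382 and 5496 scaled reads, with log2 fold changes of 0.07 with KD-1 and -0.54 with KD-2. Pold1 also has the highest GC content of the 40 genes, 61.0%, a measure that went with the KD-2 values of all genes, as given below. On the lagging strand, Lig1, DNA ligase 1, had 11402, 12069 and 7909 scaled reads (log2 fold change 0.08 and -0.53). Fen1, the flap nuclease, had 10532, 9458 and 8364 scaled reads (log2 fold change -0.16 and -0.33), so that of this pair the ligase was the nearer to control in KD-1 and the nuclease in KD-2.

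Replication protein A subunits were lower in KD-2 by similar amounts, with Rpa3 at -0.67, Rpa2 at -0.58 and Rpa1 at -0.48 on the log2 scale. Rpa3, the smallest subunit, had 5024 scaled reads in control, 4462 with KD-1 and 3161 with KD-2, while Rpa2 had 16440, 14663 and 10966 and did not quite reach a fold of 1.5. Of the genes for deoxynucleotide supply, Rrm1, the large subunit of ribonucleotide reductase, had 24143, 22041 and 15833 scaled reads in control, KD-1 and KD-2 (log2 fold change -0.13 and -0.61). Rrm2, the small subunit that limits the enzyme in S phase, had 22316, 19552 and 16957 (-0.19 and -0.40). The subunits of this enzyme thus had opposite orders in the comparisons, Rrm2 the lower in KD-1 and Rrm1 the lower in KD-2. Tyms, thymidylate synthase, was at -0.01 with KD-1 and -0.54 with KD-2.

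The depth of the libraries makes the counting intervals narrow, with a median width of 0.088 with KD-1 and 0.099 with KD-2 on the log2 scale. In KD-2 the interval lay below 0 for 39 members, against 36.4% of all genes tested, and above 0 for Pold1, against 31.5%. In KD-1 it lay below 0 for 24 members (26.7% of all genes), above 0 for 9 (28.3% of all genes) and held 0 for 7. Deeply read genes more often have an interval that excludes 0. Among the 6090 genes with at least the mean reads of Gins3, the interval lay below 0 for 63.4% in KD-2 and for 44.0% in KD-1. The 9 members above 0 in KD-1, which were Mcm2, Mcm3, Mcm5, Mcm7, Cdt1, Mcm10, Gins4, Pole and Lig1, became 2 with DESeq2 size factors, Mcm2 and Cdt1. All 9 were below 0 in KD-2, an opposite placing that 9.8% of all genes and 18.8% of the 6090 shared, and no member had the reverse placing, which 9.32% of all genes had. These intervals say only that the libraries differed by more than counting error.

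The knockdown libraries were also compared with each other, since they carry different shRNAs against the same gene. Scaled reads were higher in KD-1 than in KD-2 for 39 of the 40 members, against 58.9% of all genes (41.1% were lower), and the median log2 difference was 0.47, against 0.12 over all genes. A fold of 1.5 between the knockdowns was passed by 6 members, all higher in KD-1, where 13.9% of all genes passed it in that direction and 16.1% in the other. These were Pola1 (0.77), Rfc1 (0.61), Lig1 (0.61), Pole (0.61), Orc5 (0.61) and Gins1 (0.60). Their share, 6 of 40, is near that background. Other scalings left 1 of the 6 past the fold, Pola1. The median of 0.47 became 0.19 against genes of like read count and 0.072 against ES cell markers. On the latter scale the median of all genes was -0.28, and 11 members and 73.1% of all genes were lower in KD-1. With upper-quartile scaling, all 14 fibroblast markers were below their KD-2 level in KD-1, with a median of -1.66. This was the direction opposite to that of 39 of the 40 members.

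With the knockdown libraries taken as replicates of 1 group, the edgeR quasi-likelihood test called 0 of the 40 members at an adjusted p under 0.05, and 0 members had an unadjusted p under 0.05. The lowest unadjusted p was 0.175 for Rfc4 (edgeR log2 fold change -0.53, adjusted p 1.0). The same test called 1 gene of 16670 (0.006%), and 224 genes (1.34%) had an unadjusted p under 0.05. DESeq2's Wald test called 2 genes, also with 0 members and 0 members at an unadjusted p under 0.05. In the edgeR test, the difference between the knockdown libraries gives each gene 1 residual degree of freedom. A prior of 126 degrees of freedom is shared over all genes. The spread used for each gene thus comes mostly from all genes, and little from its own 2 knockdown libraries. In that fit the members' median log2 fold change was -0.28, against 0.045 over all genes, and 38 of the 40 were below 0, as were 44.4% of all genes.

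Several other measures moved with the KD-2 values of the replication genes. A lower level in KD-2 went with a high read count across all genes: in the decile of genes with the most reads, which holds 19 members, the median log2 fold change of all genes was -0.34 and 82.2% of them were lower. In that decile 15.1% of all genes passed a fold of 1.5 downward, and the members' median was -0.53. In the next 2 deciles, with 10 members each, the medians of all genes were -0.21 and -0.11 and those of the members -0.54 and -0.55. The members thus lay below the median of genes of like abundance, by less than they lay below the median of all genes. The KD-2 values were also higher at higher GC content, from a median of -0.27 in the decile of genes with the lowest GC to 0.43 in the decile with the highest, and Pold1, the single member in that last decile, was below its median. Taking off the median of genes in the same quintile of both measures left 39 members lower in KD-2, with a median of -0.27 and 0 past a fold of 1.5. This adjustment was chosen after seeing the data.

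**Figure D3:**
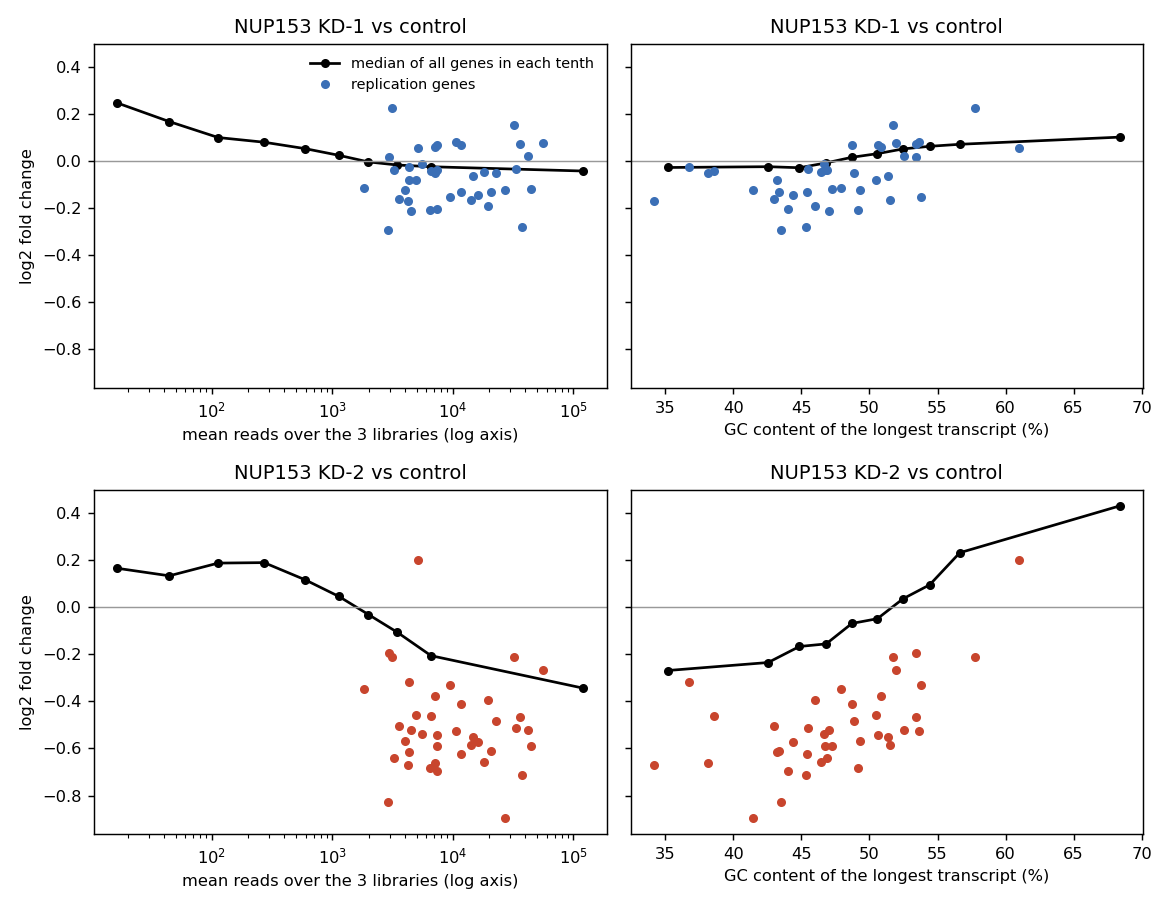
log2 fold change against control in KD-1 (top) and KD-2 (bottom), by mean reads over the 3 libraries (left, log axis) and GC content (right). Black points are medians of all genes in deciles of each measure, drawn at the middle of the range, and coloured points are the 40 replication genes; in KD-2 the black line falls to -0.34 at the highest reads and climbs to 0.43 at the highest GC, and most coloured points lie below it.

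Markers of other cells moved as well. All 14 fibroblast markers, among them collagens such as Col3a1, were lower in KD-1 (median log2 fold change -0.63, 8 past a fold of 1.5) and all 14 were higher in KD-2 (median 0.80, 12 past the fold). Their summed level was 2508 RPM (the same scaling without length) in control, 1726 with KD-1 and 4810 with KD-2, and none was at 0 in any library. The 10 ES cell markers, also at 0 in no library, summed to 4730 RPM in control, 5174 with KD-1 and 3920 with KD-2, with median log2 fold changes of 0.18 with KD-1 and -0.25 with KD-2. These markers did not all go 1 way: in KD-2, 6 were lower and 4 higher, from -0.70 for Zfp42 to 1.17 for Utf1, and in KD-1, 2 were lower and 8 higher. For every 100 reads of ES cell markers there were 177 reads of replication genes in control, 155 with KD-1 and 167 with KD-2. Against the median of the ES cell markers, the median of the replication genes was -0.24 with KD-1 and -0.28 with KD-2, with 39 and 36 members lower and 0 and 1 past a fold of 1.5 downward. That scale, also chosen after seeing the data, moves all genes by 1 amount in each comparison. The median of all genes on it was -0.16 with KD-1 and 0.23 with KD-2, 69.7% and 32.7% of them were lower, and 9.69% and 3.37% passed the fold downward. The KD-1 median of the members was thus near that of all genes and the KD-2 median was below it. The part of fibroblast RNA, read count or GC content in the values of the replication genes was not tested.

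A further 49 genes of the pathway, not among the 40, were also described. In KD-2, 46 of the 49 were lower (51.7% of all genes), the median log2 fold change was -0.54, 21 passed a fold of 1.5 downward (10.2% of all genes) and 2 upward (17.1% of all genes). With other scalings 12 to 18 passed it downward, the lowest count being that with library totals, where 40 were lower. Under each of those scalings fewer than 10.2% of all genes passed it downward and fewer than 51.7% were lower. In KD-1 the median was -0.07 and 0 passed the fold. The lowest in KD-2 were Wdhd1, a fork adaptor that works with polymerase alpha (-0.89), Dna2, a nuclease of Okazaki fragments (-0.87), and Pold3, an accessory subunit of polymerase delta (-0.81). Gmnn, the inhibitor of Cdt1, was at -0.78. Among nucleotide enzymes, 5 of 8 passed the fold (4 with library totals), with Tk1 and Dck, kinases of the salvage route, at -0.79 each. Of the genes for replication-coupled chromatin, 4 of 9 passed it (2 with library totals), among them the histone chaperone Nasp (-0.77) and Supt16 of the FACT complex (-0.76). Of the checkpoint and fork protection genes, 4 of 5 passed it, with Tipin at -0.75 and Chek1 at -0.68, but with library totals only Tipin did and with the other scalings only these 2. The 2 genes past the fold upward were Pold4, the small polymerase delta subunit (0.88, with 104, 112 and 207 reads in control, KD-1 and KD-2), and Rnaseh2c of ribonuclease H2 (0.74, 1287, 1471 and 2316 reads). Among the subunits of polymerase delta, Pold1 and Pold4 were thus above control in KD-2, Pold2 was at -0.07 and Pold3 was below it. The GC content was 61.0% for Pold1, 58.7% for Pold2, 57.3% for Pold4 and 48.6% for Pold3, and 58.1% for Rnaseh2c, of whose exon length 24.8% overlaps Kat5 on the opposite strand. Over all genes the median in KD-2 was 0.23 in the GC decile that holds Pold4 and 0.43 in the one that holds Pold1, Pold2 and Rnaseh2c. The part of the overlapping reads was not tested.

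E2F factors and pocket proteins regulate many genes of the pathway. Of 13 E2F, DP and pocket protein genes, 10 were lower in KD-2 (51.7% of all genes, median of the list -0.36 on the log2 scale) and 3 passed a fold of 1.5 downward (10.2% of all genes), namely E2f7 (-0.71) and E2f8 (-0.71), which are repressors, and Rbl1 (-0.61), a pocket protein. With library totals 0 of the 13 passed it downward and 1 upward. E2f1, an activator, was at 0.05 with KD-1 and 0.03 with KD-2, and the interval of the latter, -0.07 to 0.13, held 0. Rbl2, another pocket protein, was at -0.31 with KD-1 and 0.43 with KD-2. The members with an E2F match in the promoter window had a median of -0.50 on the log2 scale in KD-2, and those without one -0.57. Over all tested genes the medians were -0.21 with a match and -0.01 without.

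Genes of G2 and mitosis were listed to see whether S phase genes stood apart from the rest of the cell cycle. In KD-2, 14 of these 17 genes were lower, their median was -0.45 on the log2 scale and 4 were past a fold of 1.5, against 51.7% of all genes lower and 10.2% past it downward (0 of the list with library totals and 2 with each of the other scalings), and in KD-1 the median was 0.04. Ccnb1, cyclin B1, was at -0.62, Bub1, a mitotic checkpoint kinase, at -0.65 and Kif11, a spindle motor, at -0.65 in KD-2, while Cdc20, an activator of the anaphase-promoting complex, was at 0.18. Medians of -0.53 for the replication genes and -0.45 for the mitotic genes thus lay close together, and the difference between these lists was not tested.

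**Figure D4:**
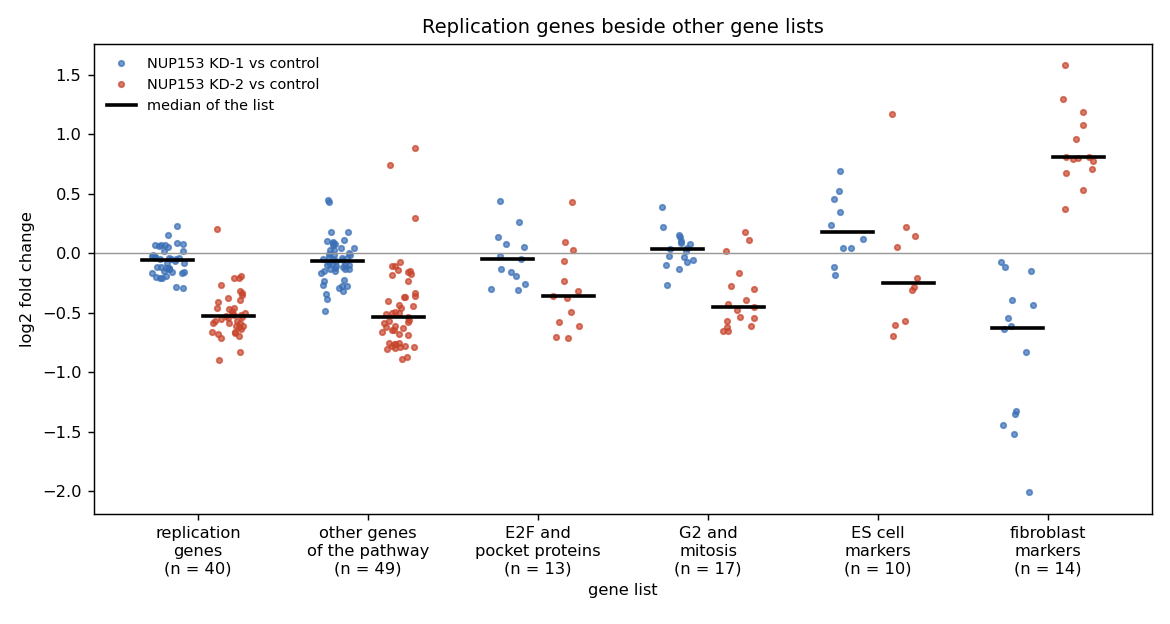
log2 fold change against control of single genes (points) and the median of each list (black bars) in KD-1 (blue) and KD-2 (red), 1 library per condition. The medians in KD-2 are -0.53 for the 40 replication genes, -0.54 for other genes of the pathway, -0.36 for E2F and pocket proteins, -0.45 for G2 and mitosis, -0.25 for ES cell markers and 0.80 for fibroblast markers.

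Reads of overlapping genes bear on 10 members, whose exons overlap another counted gene, by over 10% of the exon length in 5 of them (Gins2, Orc2, Rfc2, Rfc4 and Rfc5). The 30 members without such overlap had a median of -0.53 on the log2 scale in KD-2, with 29 lower (51.7% of all genes) and 11 past a fold of 1.5 downward (10.2% of all genes).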

How the data were processed

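Total RNA of undifferentiated EL16.7 ES cells was depleted of ribosomal RNA and sequenced, with 1 library each for control, KD-1 and KD-2. Per the labels, the authors used Trim Galore 0.4.1, TopHat2 2.1.1 and HTSeq on mm10 (GRCm38), while the methods name featureCounts. The deposited values are raw read counts per gene without normalization, and the strand setting is not given in the sources used here. Reads outside genes or ambiguous between them made up 23.5% (control), 25.6% (KD-1) and 23.0% (KD-2) of counted reads and were left out. Counts were scaled by the upper quartile over 21164 genes with a read, log2 fold changes were taken after adding 0.5 scaled reads, and exact Clopper-Pearson intervals (95%) cover counting error only. A fold of 1.5 among genes averaging 10 or more reads counted as past the fold, with no p-value for 1 library against 1. Both knockdowns against control were tested with edgeR 4.0.16 (quasi-likelihood, TMM, Benjamini-Hochberg over 16670 genes) and, as an alternative, DESeq2 1.42.0, in R 4.3.3. Both computations were run on simulated data, in which changed genes moved by more than any member did here. The simulated spread was below the fitted spread for the edgeR test and was counting error alone for the fold changes. Those runs therefore do not show how the computations perform at the changes and spread of these data. The labels name no replicate cultures, so p-values measure the spread between these samples only. Exon lengths, GC content and overlaps came from GENCODE vM21 (96.3% of tested genes matched by symbol), and promoters from RefSeq. Genes named with full values are members past the fold in any comparison and, per role group, the member with the largest change in KD-1 and KD-2. For Orc6, Rfc3, Cdc45 and Pola2 among these, scaled reads are not printed. Pold1, Mcm5 and Rpa2 were added after their values were seen. The members and gene lists were chosen with earlier results of these data known. Alternatives were other scalings, added counts, read minimums, folds and adjustments for GC content, read count and ES cell markers, the last 3 added after seeing the data. A gene of the pathway list is not reported by name here.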

Additional observations from a re-analysis of the deposited data

Results flagged for a closer look

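For 9 members the counting interval lay above 0 in KD-1 and below 0 in KD-2, each against the same control library, as for 9.8% of all genes tested and 18.8% of the 6090 genes with at least the reads of the least read member. The share of members, 9 of 40, is near the latter. The log2 difference KD-1 minus KD-2 was 0.36 for Mcm2, 0.54 for Mcm3, 0.34 for Mcm5 and 0.54 for Mcm7, all subunits of the MCM ring. It was 0.44 for Cdt1, 0.48 for Mcm10, 0.44 for Gins4, 0.61 for Pole and 0.61 for Lig1. With 1 library for each shRNA these differences were not tested, and the intervals cover counting error alone. The opposite placing depends on the scaling: 2 members kept it with DESeq2 size factors (Mcm2 and Cdt1), 7 with TMM, 7 with library totals and 9 with the upper quartile of genes averaging 10 or more reads. Mcm2 is the single member that had it under all of these scalings.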

How the results depend on the processing

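In KD-2 the 39 lower members stayed 39 under the 4 other scalings. The 14 members past a fold of 1.5 became 9 with TMM, 9 with DESeq2 size factors, 8 with the upper quartile of genes averaging 10 or more reads (median -0.47) and 2 with library totals (median -0.37, while the median of all genes moved from -0.02 to 0.14). Pola1 and Rfc4 were past the fold under each of these scalings. Each of them moved all genes upward in KD-2, so fewer than 10.2% of all genes passed the fold downward. The 2 members with library totals are therefore not read as an excess over all genes. At a fold of 1.2 there were 36 and at a fold of 2 there were 0. The share of all genes past a fold of 1.2 downward is not given here. It lies between 10.2%, the share past 1.5, and 51.7%, the share lower at any size. After adjustment, the count in KD-2 was 5 for GC content (median -0.41), 1 for mean reads (-0.25), 0 for both (-0.27) and 1 against ES cell markers (-0.28). The shares of all genes past the fold after the GC content and mean reads adjustments are not given here. In KD-1 the median was -0.13 with DESeq2 size factors and -0.24 against ES cell markers. With upper-quartile scaling, 2 members passed a fold of 1.2 downward in KD-1, against 15.5% of all genes. The 29 members lower in KD-1 became between 21 (both adjustments) and 39 (ES cell markers, a scale on which 69.7% of all genes were lower).

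Between the knockdowns the median of 0.47 became 0.42 with TMM, 0.37 with DESeq2 size factors and 0.31 with library totals. It was 0.27 after adjustment for GC content, 0.19 for mean reads, 0.19 for both and 0.072 against ES cell markers, where 2, 3, 2 and 11 members were lower in KD-1. The 6 members past the fold became 1 with each of the 4 other scalings, 35 at a fold of 1.2, 0 at a fold of 2, 0 for GC content, 0 for mean reads, 1 for both and 0 against ES cell markers. The shares of all genes at these settings are not given here. At a fold of 1.2 the share higher in KD-1 lies between 13.9%, the share past 1.5, and 58.9%, the share higher at any size. With the other scalings it was under 13.9%. In the test of both knockdowns, genes called were 0 with DESeq2 size factors, 4 with no read minimum and 2 with the DESeq2 Wald test. The members' median there ranged from -0.49 without KD-1 to -0.08 without KD-2, values with no test. No paired analysis was possible because each condition has 1 library. Causes of these shifts were not tested. Depth was not limiting for the members, whose lowest count in a library was 1586 reads.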
